A study of Mus musculus with 16 samples.

Results

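The loci of 10 mouse megakaryocyte and platelet genes (Itga2b, Itgb3, Gp9, Gp1ba, Gp6, Pf4, Vwf, Selp, Treml1 and Nfe2) were followed through 16 ATAC-seq peak lists. ATAC-seq reads out DNA that is open to a transposase. The peaks of all 16 lists were merged wherever they shared 1 bp, and the regions lying in the body of each gene or within 10 kb of it were taken. This gave 147 regions of 296215 in the series, and 9 of the 10 genes had at least 1. The cells were sorted bone marrow HSPCs (hematopoietic stem and progenitor cells) that had been frozen, and each library pooled the cells of 2 mice of a genotype. Each of the 4 genotypes had 4 libraries. Per the study's methods all mice carried floxed Ep300 alleles (Ep300 fl/fl) on a C57BL/6 background and all received poly(I:C), which switches on Mx1-Cre. WT mice had no Cre, P300KO mice had Mx1-Cre, TET2KO mice had no Cre and were Tet2-/-, and P300KO_TET2KO mice had Mx1-Cre and were Tet2-/-. Mx1-Cre is driven by an interferon-responsive promoter that is not restricted to HSPCs, and it was present in the libraries without p300 only, so the effect of Cre itself and that of Ep300 deletion cannot be told apart.

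Megakaryocytes arise from stem and progenitor cells and shed platelets, which seal wounds by binding to the vessel wall and to each other. Itga2b and Itgb3 encode the subunits of the platelet fibrinogen receptor, and Gp9 and Gp1ba encode subunits of the receptor for von Willebrand factor. Gp6 encodes a collagen receptor, Pf4, Vwf and Selp encode proteins stored in platelet granules, Treml1 encodes a receptor carried to the surface from those granules, and Nfe2 encodes a transcription factor needed for platelet release. Itga2b, Vwf and Selp are also used outside mature megakaryocytes, the first in early progenitors and the latter pair in endothelium. p300 is a lysine acetyltransferase that acts at enhancers, and TET2 oxidizes methylated cytosine.

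The sequences below are shown because they carry the contrasts described here: a start that was open in every library (Gp1ba, Itga2b), a start without any peak (Gp6), a start that was weak beside a strong intronic site of its own gene (Selp), and intronic regions of Vwf and Itgb3 that were constant or that differed between libraries. Promoters are the 250 bases before the start in RefSeq (build GRCm38.p6). They matched 7 of the 10 members, with no entry for Itgb3, Vwf and Nfe2. Peaks are 300 bases around the consensus summit on the same build, which the submitters call mm10. Distances count from the GENCODE gene start, with plus meaning in the direction of transcription. Capitals mark letters searched on both strands: for Gata the letters AGATAA and also TGATAA, for Ets the letters CGGAAG and also AGGAAG, for Runx the letters TGTGGT and also TGCGGT, for the Tal1 E-box the letters CAGATG, and for the NF-E2 or AP-1 core the letters TGACTCA, whose reverse complement TGAGTCA is the same motif.
Gp1ba promoter (chr11:70638872-70639121, plus strand): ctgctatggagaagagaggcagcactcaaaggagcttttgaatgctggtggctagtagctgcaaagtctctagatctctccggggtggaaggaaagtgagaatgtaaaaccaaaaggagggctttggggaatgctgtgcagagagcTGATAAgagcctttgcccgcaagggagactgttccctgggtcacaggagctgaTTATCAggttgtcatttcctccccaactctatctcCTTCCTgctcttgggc
Itga2b promoter (chr11:102469884-102470133, minus strand): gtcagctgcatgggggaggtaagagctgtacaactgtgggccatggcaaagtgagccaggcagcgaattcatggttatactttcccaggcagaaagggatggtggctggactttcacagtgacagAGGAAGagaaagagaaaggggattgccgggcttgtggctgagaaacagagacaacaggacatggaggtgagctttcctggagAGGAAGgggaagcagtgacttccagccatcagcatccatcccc
Gp6 promoter (chr7:4397745-4397994, minus strand): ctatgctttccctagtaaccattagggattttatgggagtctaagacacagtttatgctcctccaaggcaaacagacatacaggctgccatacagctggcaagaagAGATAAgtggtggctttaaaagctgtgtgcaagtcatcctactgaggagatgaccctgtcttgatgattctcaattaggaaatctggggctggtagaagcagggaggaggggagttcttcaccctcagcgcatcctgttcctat
Selp promoter (chr1:164115014-164115263, plus strand): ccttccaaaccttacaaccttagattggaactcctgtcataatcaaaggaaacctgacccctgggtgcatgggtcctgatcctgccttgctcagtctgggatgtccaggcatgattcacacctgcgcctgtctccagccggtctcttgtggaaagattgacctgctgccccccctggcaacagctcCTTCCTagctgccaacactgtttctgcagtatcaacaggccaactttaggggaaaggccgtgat
Selp +20.28 kb (chr1:164135393-164135692, plus strand): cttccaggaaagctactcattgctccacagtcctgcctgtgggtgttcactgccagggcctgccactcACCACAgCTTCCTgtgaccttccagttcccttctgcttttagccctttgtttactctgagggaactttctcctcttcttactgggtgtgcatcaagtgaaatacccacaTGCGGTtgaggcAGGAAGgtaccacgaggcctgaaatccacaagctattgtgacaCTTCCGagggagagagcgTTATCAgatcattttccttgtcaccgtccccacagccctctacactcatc
Vwf +26.63 kb (chr6:125573252-125573551, plus strand): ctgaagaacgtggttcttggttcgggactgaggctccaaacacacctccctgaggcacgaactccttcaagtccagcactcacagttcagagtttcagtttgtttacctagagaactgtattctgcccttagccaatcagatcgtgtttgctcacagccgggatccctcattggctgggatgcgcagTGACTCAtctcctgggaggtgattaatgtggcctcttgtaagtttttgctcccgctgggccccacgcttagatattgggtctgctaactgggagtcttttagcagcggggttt
Vwf +53.58 kb (chr6:125600206-125600505, plus strand): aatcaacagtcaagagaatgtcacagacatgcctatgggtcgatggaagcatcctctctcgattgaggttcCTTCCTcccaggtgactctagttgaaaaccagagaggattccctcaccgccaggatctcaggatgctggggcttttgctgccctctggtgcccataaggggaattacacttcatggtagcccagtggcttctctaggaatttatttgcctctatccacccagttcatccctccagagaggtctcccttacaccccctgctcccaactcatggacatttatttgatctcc
Itgb3 +5.70 kb (chr11:104613553-104613852, plus strand): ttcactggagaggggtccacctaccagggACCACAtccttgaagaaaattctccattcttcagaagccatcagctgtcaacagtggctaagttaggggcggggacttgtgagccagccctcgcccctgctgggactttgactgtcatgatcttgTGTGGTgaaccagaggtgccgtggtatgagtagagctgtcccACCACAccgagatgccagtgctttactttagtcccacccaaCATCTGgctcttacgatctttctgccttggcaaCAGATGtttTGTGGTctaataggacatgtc

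Each of the 7 promoters held at most 3 matches. The Gp1ba promoter had 2 Gata matches and 1 Ets match, the Itga2b promoter had 2 Ets matches, and the Gp6 promoter, which had no peak, had 1 Gata match. Among all 32851 RefSeq promoters cut to the same length, 16.6% held a Gata match, 39.2% an Ets match, 18.6% a Runx match, 14.4% the Tal1 E-box and 4.46% the NF-E2 or AP-1 core. The intronic Selp region held 1 Gata, 3 Ets and 2 Runx matches, and the intronic Vwf region 26.63 kb past the start held 1 NF-E2 or AP-1 core. The Itgb3 region at +5.70 kb held 4 Runx matches and 2 Tal1 E-boxes. In windows of 300 bases around the summit, a Runx match was found in 45.0% of the 80 member regions that had a peak in at least 4 libraries and in 34.9% of the 128335 such regions of the series. In the same windows Gata was found in 23.8% against 22.4%, Ets in 61.3% against 58.3%, the Tal1 E-box in 16.3% against 22.9% and the NF-E2 or AP-1 core in 8.75% against 8.08%. A Gata match was found in 33.3% of the 33 member regions present in all 16 libraries and in 17.4% of all 39310 such regions, whose median GC content was 52.3% and 54.0%, and there Runx was found in 48.5% against 33.9%, Ets in 60.6% against 59.5%, the Tal1 E-box in 9.09% against 19.9% and the NF-E2 or AP-1 core in 6.06% against 7.07%. Away from coding gene starts, in 22 member regions and 28018 regions of the series, Gata was found in 27.3% against 21.8%, Runx in 59.1% against 38.4%, Ets in 54.5% against 61.1%, the Tal1 E-box in 13.6% against 24.0% and the NF-E2 or AP-1 core in 4.55% against 8.76%. These are counts of letters, and no factor was measured.

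The peak lists give no read counts, so the depth of each library is unknown and list length stands in its place. Replicates 1 and 2 had 86039 to 110055 peaks and replicates 3 and 4 had 130610 to 137335, in every genotype, and a missing peak therefore means that none was listed at that length. The peaks of a list are numbered, and 0.140% to 0.396% of the numbers up to the highest were absent from the lists as used here, so percentiles are ranks among the peaks held and a peak at a region counted as absent may be among those numbers. Levels are given as a percentile, the rank of a region's strongest peak by -log10 p within its own list, where 100 is the strongest peak and 0 means no peak. The start of the stem cell receptor gene Kit had a peak in 16 of 16 libraries with a mean percentile of 96.3, and that of Cd34 had 91.5. The starts of the erythroid gene Klf1 (97.9) and of the myeloid gene Mpo (72.4) also had a peak in 16 libraries. By whole marker lists, the start had a peak in all libraries for 4 of 7 stem and progenitor genes, 4 of 6 erythroid, 3 of 6 neutrophil and monocyte, 0 of 6 lymphoid and 2 of 6 endothelial genes. The endothelial pair was Kdr (77.3) and Esam (68.0), Tek and Emcn had a start peak in 13 and 14 libraries, and the starts of Cdh5 and Ptprb had one in 0. In such pooled cells, fewer cells of a type with an open site and less opening per cell cannot be told apart. No p-value here covers more than the spread between these libraries.

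The 10 starts ran from among the strongest peaks of every list to none. Of the 147 member regions, 33 (22.4%) had a peak in all 16 libraries against 13.3% of all regions, and 52 (35.4%) had a peak in a single library against 45.6% of all regions. A region over the gene start was present in 16 of 16 libraries for 7 of the 10 genes, and among all 21938 coding genes this held for 57.5%. Of the 147 regions, 72 lay in introns of the members, 28 upstream, 28 downstream and the rest in exons. Of the same 147 regions, 9 lay within 1 kb of the start of another coding gene, such as Fam171a2 beside Itga2b, Slc25a11 beside Gp1ba and Hnrnpa1 beside Nfe2, and cannot be assigned to the member alone.

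**Figure D1:**
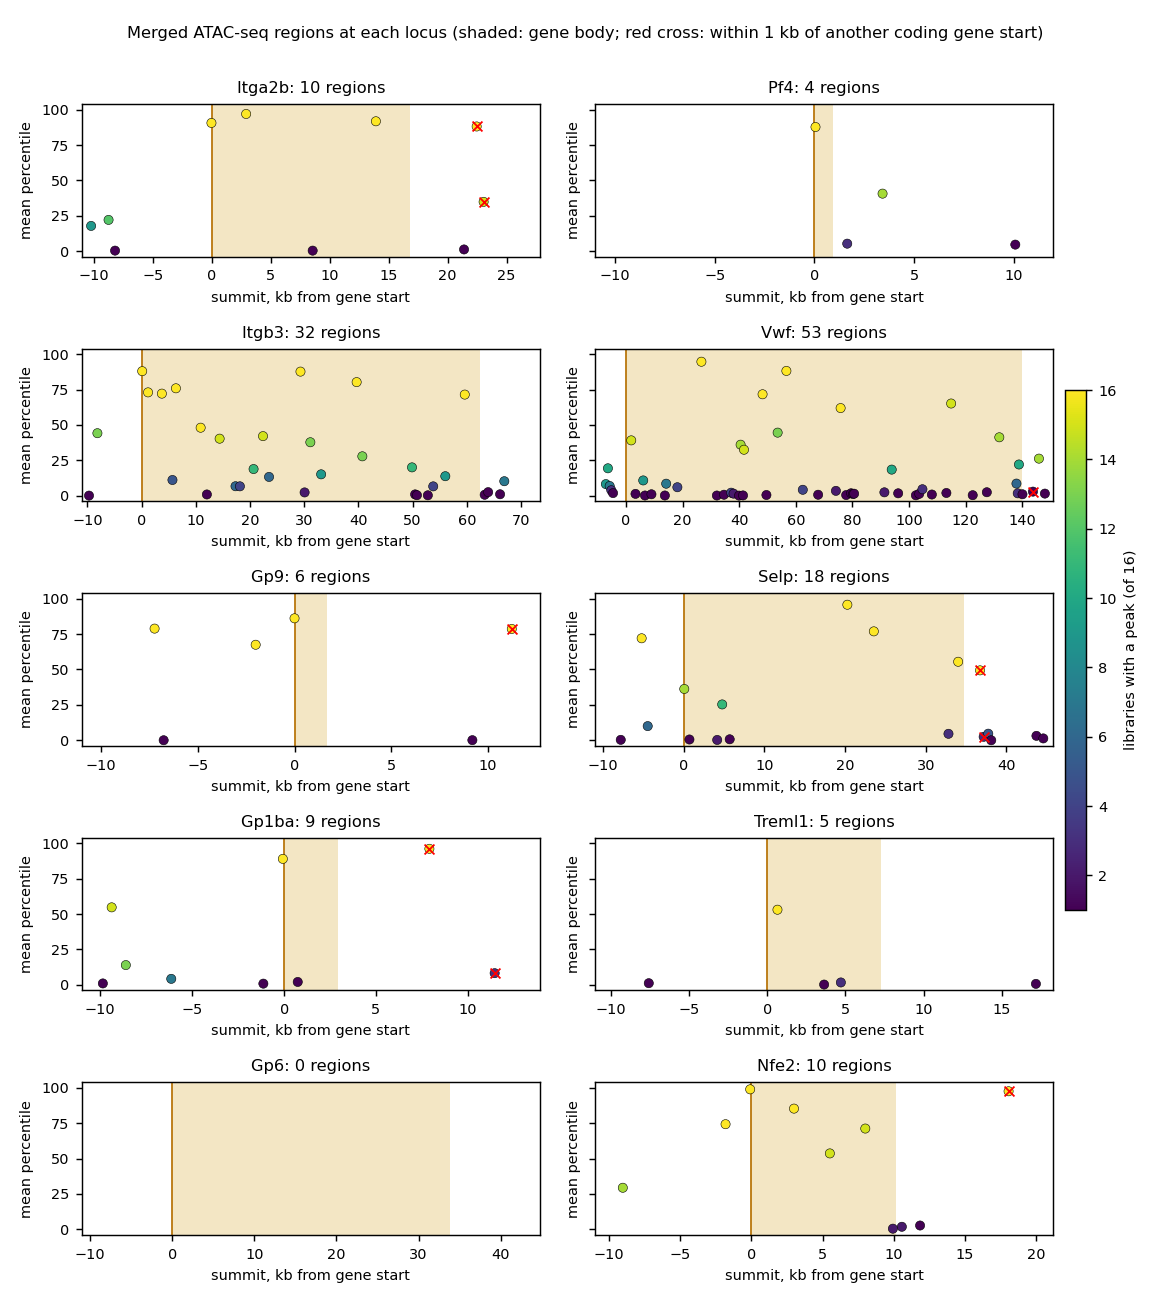
Mean percentile over the 16 libraries (y axis) of each merged region against the distance of its summit from the gene start in kb (x axis), 1 panel a gene, with the gene body shaded, the color giving the number of libraries with a peak and a red cross marking regions within 1 kb of another coding gene start. The start is among the highest points for Itga2b, Itgb3, Gp9, Gp1ba, Pf4 and Nfe2, the highest points of Vwf and Selp lie in introns, and Gp6 has 0 regions.

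The genes of the fibrinogen receptor were open at both starts and inside the genes. The Itga2b start region (chr11:102469740-102470486) had percentiles of 78.3, 87.9, 92.5 and 90.9 in the WT libraries, 89.3, 94.0, 93.1 and 92.4 in P300KO, 88.5, 87.1, 91.1 and 92.9 in TET2KO, and 91.1, 90.5, 95.2 and 94.9 in P300KO_TET2KO. All 16 libraries had it, and the genotypes overlapped. Its strongest region lay 2.92 kb past the gene start, in an intron of the main transcript and over an annotated noncoding start, with a mean of 96.9 ± 1.37 (SD, n = 16). The Itgb3 locus held 32 regions, of which 8 were present in all libraries, and its start region had 88.0 ± 1.63 (SD, n = 16) with a range of 84.1 to 91.3. By the summed percentiles of its regions, a measure that grows with gene length, the Itgb3 locus stood above 97.3% of coding gene loci.

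The genes of the von Willebrand factor receptor were short loci with open starts. The Gp9 start had a mean of 86.2, and each of the 16 lists held the same 4 Gp9 regions, with 2 more in 1 library. The Gp1ba start had 89.0 ± 2.25 (SD, n = 16), while the strongest region of its window (96.1 ± 1.01) sat at the start of Slc25a11, 7.90 kb away. Gp6 differed from both. It had 0 regions in its body or within 10 kb in any of the 16 lists, full or equal in size, as did 9.96% of coding gene loci. The nearest region lay 12.2 kb above the gene and had a peak in 7 libraries, and the nearest one present in all 16 lay 29.3 kb above it.

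The granule genes split. The Pf4 start (chr5:90771505-90772928) had a mean of 87.7, with all 16 libraries between 83.6 and 90.4, and was the sole Pf4 region found in all libraries. Vwf, which has a gene body of 139.9 kb, had 53 regions, but 25 of them came from a single library and 4 from all 16. No library had a peak within 1 kb of the annotated Vwf start. A second annotated coding start, where a region lies at +6.07 kb, had a peak in 9 of 16 libraries with a mean percentile of 10.8. The intronic region at +26.63 kb (chr6:125572352-125573801) had 94.7 ± 1.06 (SD, n = 16), and its lowest library was at 92.2. Selp showed the same arrangement: its start had a peak in 14 libraries with a mean of 36.3, and its intronic region at +20.28 kb (chr1:164135155-164136331) had 95.8 ± 1.08, with all 16 libraries between 93.0 and 97.2. The Treml1 start was present in 16 libraries but was of middle rank, at 53.1 ± 10.6 (SD, n = 16), and entered the strongest 50000 peaks in 6 of them.

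The regulator had the highest start. The Nfe2 start region (chr15:103257857-103258804) had percentiles of 99.6, 98.9, 99.7 and 98.5 in WT, 98.6, 98.4, 99.1 and 99.5 in P300KO, 98.7, 97.8, 99.4 and 99.4 in TET2KO, and 98.1, 98.5, 99.5 and 99.4 in P300KO_TET2KO. The 16 values fell within a narrow band, and the mean of 98.9 was above that of 95.1% of coding gene starts. Itga2b stood above 63.5% of coding gene starts and Treml1 above 42.2%. The start used for Nfe2 is the outermost one annotated, and a further coding start 2.99 kb inside it was also open in all libraries (85.3).

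**Figure D2:**
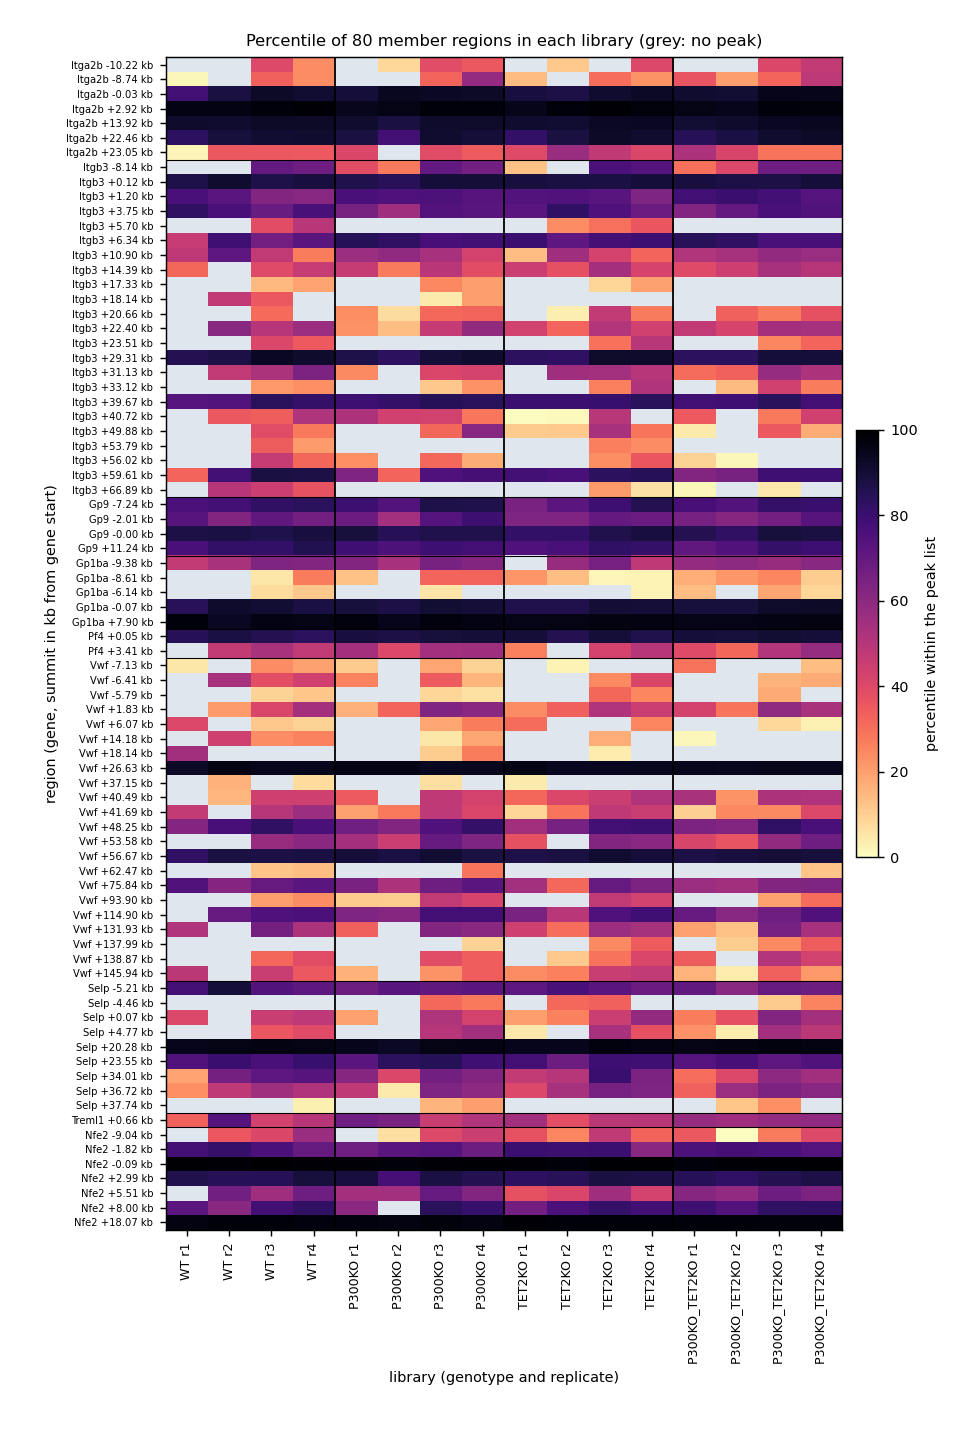
Percentile within the peak list (color, 0 to 100, grey for no peak) of the 80 member regions with a peak in at least 4 libraries (rows, ordered by gene and distance) in each of the 16 libraries (columns, by genotype and replicate). Dark rows such as the Nfe2 start and the intronic Selp and Vwf regions run through every column, and most grey cells fall in replicates 1 and 2.

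The contrasts ask whether these regions ranked differently where Ep300, Tet2 or both were deleted. No member region passed the threshold. In limma fits over all 128335 regions, with the replicate pair as a term, 0 of the 80 member regions had an adjusted p under 0.05 in any contrast. The share of all regions called was 0.0343% for P300KO_TET2KO against TET2KO, 0.0117% for P300KO against WT, 0.00701% for TET2KO against WT, 0.0748% for P300KO_TET2KO against P300KO, 0.201% for the effect of p300 loss averaged over both Tet2 backgrounds, and 0.0% for the difference of that effect between backgrounds. At an unadjusted p under 0.05 the members numbered 4, 11, 7, 7, 14 and 4 in the same order, beside 6.97%, 10.9%, 7.97%, 7.37%, 12.9% and 3.9% of all regions. For averaged p300 loss 14 of 80 is 17.5%, and 40 of the 80 differences were above 0, with a median of -0.0108 points against 0.561 over all regions. Of the 80, 7 reached the minimum of 4 libraries through those with p300 (at least 4 there and fewer without) and 4 through those without, and in the lists of 50000 below this held for 1 and 4 of 39, so the filter itself set part of their differences and these counts are a description. The contrasts share libraries and are not independent.

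With every list cut to its strongest 50000 peaks, limma again called 0 of 39 member regions in each contrast. The share of all regions called there was 0.104% in P300KO_TET2KO against TET2KO, 0.409% in P300KO against WT, 0.0179% in TET2KO against WT, 0.322% in P300KO_TET2KO against P300KO, 1.97% for averaged p300 loss and 0.0% for the difference between the backgrounds. In the same order, 2, 7, 4, 4, 9 and 3 of the 39 members had an unadjusted p under 0.05, beside 7.97%, 15.4%, 10.5%, 9.09%, 16.9% and 5.34% of all regions. The lowest adjusted p for averaged p300 loss was that of the Itga2b start. In these lists its percentiles were 57.2, 73.4, 80.4 and 75.8 in WT, 78.5, 89.6, 81.4 and 79.6 in P300KO, 78.9, 75.8, 75.4 and 81.1 in TET2KO, and 82.8, 81.3, 87.2 and 86.8 in P300KO_TET2KO. All P300KO_TET2KO libraries lay above all TET2KO libraries, while P300KO and WT overlapped. In this contrast 3 of 39 members were higher without overlap (the Itga2b and Gp1ba starts and Nfe2 +5.51 kb), beside 2.68% of all regions, and 2 were lower (Itgb3 +59.61 kb and Selp +34.01 kb), beside 1.96%. Nfe2 +5.51 kb and Selp +34.01 kb reached the minimum of 4 libraries through those, without or with p300, in which they ranked higher. The counts are thus a description. Averaged over both backgrounds the Itga2b start was 8.65 ± 2.35 points higher without p300 (SE, limma adjusted p = 0.0582), and in the full lists 3.92 ± 1.21 points higher (adjusted p = 0.194). The Pf4 start was 6.48 ± 1.95 points higher (limma adjusted p = 0.0873) and the Gp1ba start 3.78 ± 1.80 points higher (limma adjusted p = 0.292). Regions of Itgb3, named after their values were seen, differed by more points in both directions. That at +59.61 kb differed by -21.5 ± 6.96 points (limma adjusted p = 0.111), that at +1.20 kb by 16.9 ± 5.36 (adjusted p = 0.105) and that at +6.34 kb by 18.7 ± 6.28 (adjusted p = 0.125).

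In the lists of 50000, whether a member passed the threshold depended on the library left out, by fits added after the data were seen. WT replicate 1 had 44349 peaks at a -log10 q of at least 2, fewer than the 50000 kept. Without it limma called 3 of 39 members for averaged p300 loss, beside 3.46% of all regions: the Itga2b start (6.35 points higher, adjusted p = 0.0343), Itgb3 +1.20 kb (19.4 points, adjusted p = 0.0377) and Itgb3 +59.61 kb (-28.2 points, adjusted p = 0.00309). Itgb3 +6.34 kb, at 0 in WT replicate 1 and at 53.3, 11.7 and 26.3 in the other WT libraries, was then at 12.7 points (limma adjusted p = 0.109). Without WT replicate 2 limma called 2 members, the Itga2b start (9.30 points, adjusted p = 0.0444) and Itgb3 +6.34 kb (22.4 points, adjusted p = 0.0489), beside 2.72% of all regions. Without WT replicate 3 it called the Itga2b start alone (9.89 points, adjusted p = 0.0429), beside 1.18%. For P300KO against WT it called 1 member without WT replicate 1 (Itgb3 +59.61 kb, -35.3 points, adjusted p = 0.0229) and 1 without WT replicate 2 (Itgb3 +6.34 kb, 39.7 points, adjusted p = 0.0421), beside 0.793% and 0.751% of all regions. Leaving out any other library called no member. For averaged p300 loss the Itga2b start was then at 6.97 points without P300KO replicate 2 (limma adjusted p = 0.109). Without TET2KO replicate 3 it was at 7.87 points (limma adjusted p = 0.121). With all 16 libraries the Nfe2 start differed by -0.0917 ± 0.551 points for averaged p300 loss, the intronic Selp region by 0.0744 ± 0.679 and the intronic Vwf region by 0.688 ± 1.12, each within 1 SE of 0. In P300KO_TET2KO against P300KO the intronic Selp region was 3.26 ± 0.959 points higher (SE, limma adjusted p = 0.215). It was the 1 of 39 members higher without overlap in that contrast, beside 2.43% of all regions, and 0 were lower (1.92%).

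**Figure D3:**
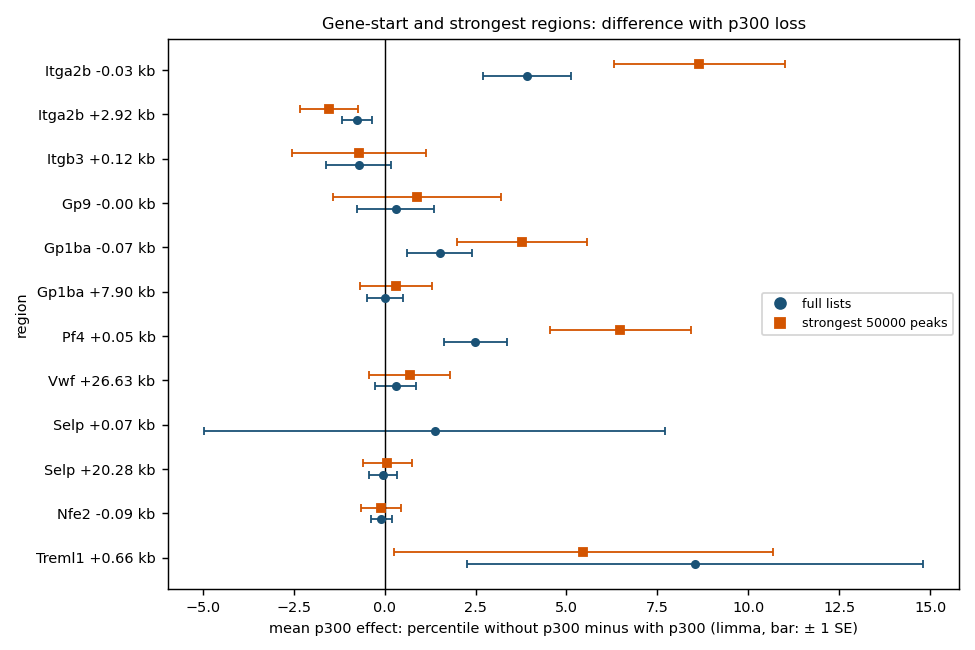
Difference in percentile between libraries without and with p300, averaged over both Tet2 backgrounds (x axis, limma estimate, bar ± 1 SE), for the gene-start region and the strongest region of each member (y axis), in full lists (circles) and the strongest 50000 peaks (squares). The Itga2b, Pf4 and Gp1ba starts lie to the right of 0 in both kinds of list, and the Nfe2 start and the intronic Selp and Vwf regions lie at 0 within 1 SE.

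In the full lists, the largest difference with p300 loss averaged over both backgrounds was at a weak region of Itgb3, followed by Vwf +53.58 kb, at 19.8 ± 7.13 points (limma adjusted p = 0.257), and Itgb3 +66.89 kb, at -19.0 ± 5.42 points (adjusted p = 0.165). The Itgb3 intronic region at +5.70 kb (chr11:104613571-104613812) had percentiles of 0, 0, 38.5 and 49.1 in WT, 0 in all 4 P300KO libraries, 0, 24.0, 29.9 and 36.3 in TET2KO, and 0 in all 4 P300KO_TET2KO libraries. It was detected in 5 of the 8 libraries with p300 and in 0 of the 8 without, and it did not enter the strongest 50000 peaks anywhere. Its difference averaged over both backgrounds was -22.2 points, made of -5.99 in replicates 1-2 and -38.5 in replicates 3-4. The intronic region at +53.79 kb (chr11:104661681-104661998) had 0, 0, 34.2 and 20.8 in WT, 0, 0, 26.6 and 24.1 in TET2KO, and 0 in every library without p300. Both regions reached the minimum of 4 libraries for testing through libraries with p300 alone, which had to make them differ, so their differences are given without a test. These were the 2 member regions with a peak in at least 4 libraries with p300 and in 0 without, a pattern that 0.49% of all tested regions showed, selected by the same minimum. The opposite pattern was held by 0 member regions and by 0.589% of all tested regions.

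A region 66.89 kb past the Itgb3 start, downstream of the gene (chr11:104674756-104675144), had 0, 49.9, 44.9 and 36.9 in WT, 0 in all P300KO libraries, 0, 0, 20.8 and 5.68 in TET2KO, and 1.34, 0, 4.58 and 0 in P300KO_TET2KO. WT replicate 1 was the WT library without it. The difference of P300KO from WT was -32.9 ± 7.67 points (SE, limma adjusted p = 0.195). Without WT replicate 1 it was -43.5 (limma adjusted p = 0.0192), that of TET2KO from WT, -26.3 ± 7.67 with all libraries (adjusted p = 0.598), was -36.9 (adjusted p = 0.0280) and that of averaged p300 loss was -24.3 (adjusted p = 0.0115). It was then the 1 member region called in each of these contrasts, in which 0.053%, 0.0312% and 0.506% of all regions were called. The region had a peak in 5 libraries with p300 and 2 without, and so reached the minimum of 4 libraries through the former. The filter thus set part of its differences with p300 loss, and these calls are a description.

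The Itgb3 calls differed between the replicate pairs. In replicates 3-4 alone, limma called 4 of 80 member regions lower with averaged p300 loss, all at Itgb3, beside 2.98% of all regions called and 1.85% called lower. They included those at +5.70 and +53.79 kb, whose calls count for nothing here because both were tested through libraries with p300 alone. The region at +66.89 kb (adjusted p = 0.0387) had a peak in 5 libraries with p300 and 2 without, and so also reached the minimum through the former. The filter thus set part of its difference, and its call and the count of 4 are a description. The region at +59.61 kb (adjusted p = 0.0115), the 1 call of the 4 that the filter did not set, lies over the 3' UTR and was present in all libraries. Its percentiles in replicates 3 and 4 were 88.0 and 87.3 in WT, 75.4 and 77.7 in P300KO, 83.6 and 85.1 in TET2KO, and 78.6 and 79.2 in P300KO_TET2KO, a difference of -8.26 ± 1.01 points (SE). Its percentiles in replicates 1 and 2 were 32.6 and 78.2 in WT, 63.1 and 32.3 in P300KO, 78.3 and 76.7 in TET2KO, and 62.3 and 65.0 in P300KO_TET2KO, so that P300KO overlapped WT while both P300KO_TET2KO libraries lay below both TET2KO libraries. The difference in replicates 1-2 alone was -10.8 ± 11.4 points (SE, limma adjusted p = 0.752), of the same sign as in replicates 3-4 and with a larger SE. At +5.70 kb it was -5.99 points and at +66.89 kb -12.1 ± 9.97 points (adjusted p = 0.735), and at +53.79 kb no library of replicates 1-2 had a peak. In replicates 1-2 alone limma called 0 members and 0.0% of all regions. The regions at +5.70 and +53.79 kb were present in 4 of 4 libraries with p300 and 0 of 4 without in replicates 3-4, as were 0.231% of all regions. In replicates 1-2, 0 member regions and 0.0121% of all regions had this pattern. What sets the pairs apart beyond list length was not given in the sources used here.

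**Figure D4:**
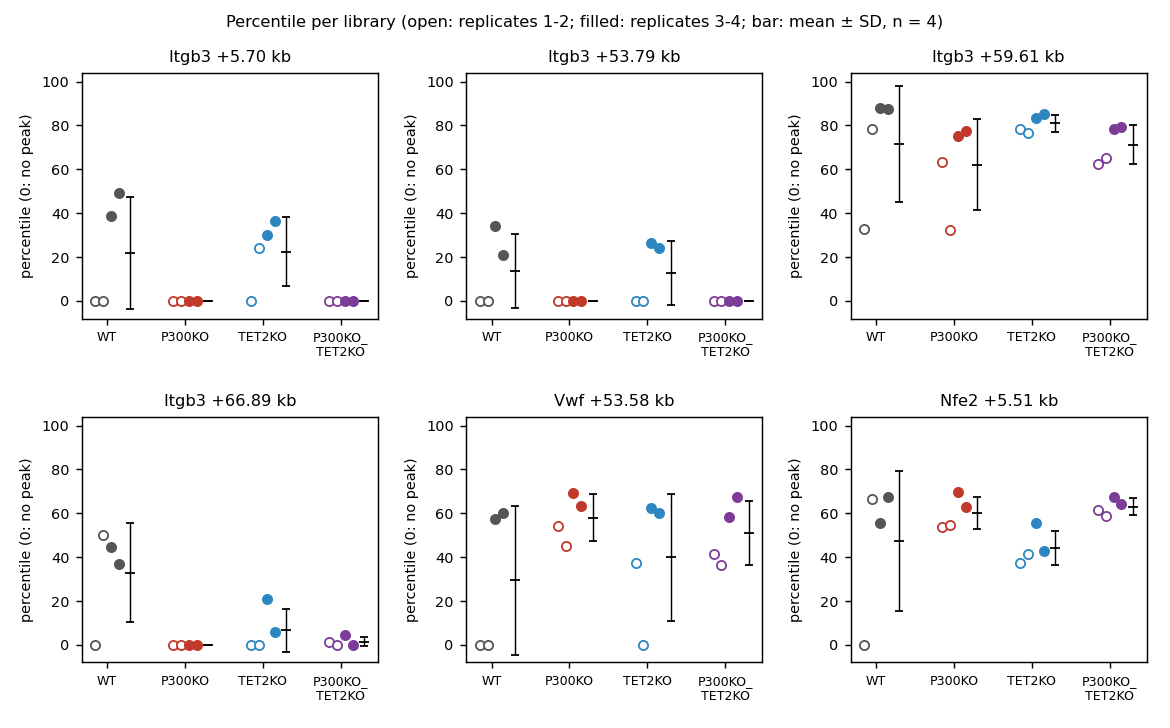
Percentile in each library (y axis, 0 for no peak) of 4 Itgb3 regions, a Vwf region and an Nfe2 region by genotype (x axis), with open points for replicates 1-2, filled points for replicates 3-4 and bars for the mean ± SD of 4 libraries. At Itgb3 +5.70 kb and +53.79 kb every library without p300 is at 0, and at Vwf +53.58 kb the libraries at 0 are WT replicates 1 and 2 and TET2KO replicate 2.

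Among the granule genes the largest difference was in a Vwf intron. The region at +53.58 kb (chr6:125600221-125600473) had 0, 0, 57.4 and 60.2 in WT, 54.0, 44.9, 69.3 and 63.4 in P300KO, 37.2, 0, 62.3 and 60.2 in TET2KO, and 41.6, 36.5, 58.5 and 67.5 in P300KO_TET2KO. All 8 libraries without p300 had it, as did 5 of the 8 with p300. P300KO stood 28.5 ± 10.1 points above WT (SE, limma adjusted p = 0.368), with 49.5 points in replicates 1-2 and 7.54 in replicates 3-4. In the lists of 50000 peaks it was present in 4 of 4 P300KO libraries and 0 of 4 WT libraries, as were 0.149% of all regions, and 0 members were lost there (0.0819% of all regions). It was present in 5 of 8 libraries without p300 and 0 of 8 with, and 0.263% of the regions tested there had at least 5 and 0. It was thus tested there through libraries without p300 alone, so its difference of 7.82 points for P300KO against WT is given without a test. In that contrast 0 of 39 members were lower without overlap (1.62% of all regions), and this region was the 1 higher (2.11%). At Selp, the region at +34.01 kb was in 4 of 4 TET2KO and 0 of 4 P300KO_TET2KO lists of 50000 peaks, as were 0.117% of all regions. In the full lists all 16 libraries had it and the genotypes overlapped. The Selp start was 16.9 ± 8.96 points higher in P300KO_TET2KO than in P300KO (SE, limma adjusted p = 0.725).

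At Nfe2 the largest differences were at regions inside the gene. The region at +5.51 kb (chr15:103252705-103253067), in an intron of the longest transcript and over a further annotated coding start, had 0, 66.4, 55.4 and 67.3 in WT, 53.9, 54.5, 69.5 and 62.7 in P300KO, 37.4, 41.3, 55.4 and 42.9 in TET2KO, and 61.5, 58.6, 67.6 and 64.0 in P300KO_TET2KO. Each P300KO_TET2KO library lay above each TET2KO library, by 18.7 ± 10.8 points on average (SE, limma adjusted p = 0.798). Within replicate pairs the difference was 20.7 and 16.7 points. In the lists of 50000 peaks it was present in 4 of 4 P300KO_TET2KO libraries and 0 of 4 TET2KO libraries, as were 0.185% of all regions. It reached the minimum there through libraries without p300 (7, against 2 with p300). Its difference of 16.1 points in those lists is thus given without a test. The Nfe2 region at +8.0 kb was at 0 in P300KO replicate 2 and at 60.4 to 84.0 in the other 3 P300KO libraries, and P300KO_TET2KO stood 23.4 ± 10.2 points above P300KO (SE, limma adjusted p = 0.643), or 6.64 points without P300KO replicate 2.

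In the full lists, groups without overlap were few. In P300KO_TET2KO against TET2KO the Nfe2 region at +5.51 kb and the Treml1 start were higher without overlap, 2 of 80 members (2.50%) beside 1.21% of all regions, and 0 were lower (0.559% of all regions). Treml1 start percentiles were 57.7, 55.2, 58.0 and 59.0 in P300KO_TET2KO and 55.1, 37.9, 48.8 and 49.6 in TET2KO. P300KO_TET2KO against P300KO gave 0 lower regions (0.806% of all regions) and 2 higher ones (1.06%), both at Nfe2, of which that at +18.07 kb is at the start of Hnrnpa1 and the other lies at -1.82 kb. TET2KO against WT gave 0 lower regions (0.627% of all regions) and 1 higher region (0.302%), 23.05 kb past the Itga2b start and within 1 kb of the Fam171a2 start. P300KO against WT gave 0 (0.537% higher and 0.864% lower among all regions). A region present in 4 of 4 libraries of a genotype and 0 of 4 of the other was found for 0 members in each of the 4 contrasts, as it was for few regions of the series. Gained and lost regions made up 0.0598% and 0.0128% of all regions in P300KO_TET2KO against TET2KO, 0.0132% and 0.0105% in P300KO against WT, 0.0142% and 0.00709% in TET2KO against WT, and 0.0652% and 0.0307% in P300KO_TET2KO against P300KO.

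The other differences named for their size, among those with the same sign in both replicate pairs, did not pass the limma threshold. At Itgb3, the region at +10.90 kb was 19.2 ± 10.2 points higher in P300KO_TET2KO than in TET2KO (SE, limma adjusted p = 0.763), which was 9.97 points without TET2KO replicate 1 and lost its direction in lists of 50000 peaks (-0.57). The Itgb3 region at +18.14 kb was in 2 WT and 0 TET2KO libraries (-20.6 ± 8.30 points, limma adjusted p = 0.611, or -10.7 without WT replicate 2), and that at +31.13 kb was 16.4 ± 11.5 points higher in P300KO_TET2KO than in P300KO (adjusted p = 0.814). The Vwf region at +14.18 kb differed by -17.6 ± 7.03 points between P300KO and WT (SE, limma adjusted p = 0.405), or by -9.17 without WT replicate 2. It reached the minimum of 4 libraries through those with p300 (4, against 3 without), so the filter set part of this difference. The Itga2b region at +23.05 kb was 19.4 ± 10.5 points higher in TET2KO than in WT (limma adjusted p = 0.646), or 10.8 without WT replicate 1, which was at 1.64 against 34.8 to 35.2 in the other WT libraries.

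The number of regions with a peak at each locus differed between the replicate pairs, as list length did. Over the 10 genes together, replicates 1 and 2 had 59.8 ± 4.77 regions and replicates 3 and 4 had 78.2 ± 4.17 (SD, n = 8 each). In WT the 4 libraries had 52, 62, 78 and 82, in P300KO 65, 53, 82 and 83, in TET2KO 61, 61, 75 and 80, and in P300KO_TET2KO 64, 60, 72 and 74. Within replicates 1 and 2 the genotypes overlapped, and within replicates 3 and 4 the P300KO_TET2KO libraries, with 72 and 74 regions, lay below the others, which had 75 to 83. The lists of these P300KO_TET2KO libraries held 131832 and 130610 peaks, the latter the fewest of replicates 3 and 4. With equal lists of 50000 peaks the range narrowed to 31 to 39, with 35.4 ± 2.45 and 35.0 ± 1.51 in the replicate pairs. In replicates 3 and 4 P300KO_TET2KO then had 36 and 34 regions, within the 33 to 38 of the other genotypes.

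At Itgb3 the counts were 11, 14, 23 and 21 in WT, 16, 14, 20 and 20 in P300KO, 15, 15, 22 and 22 in TET2KO, and 16, 15, 18 and 17 in P300KO_TET2KO. The averaged p300 effect was -0.875 regions (two-sided exact permutation p = 0.431), with 1.5 in replicates 1-2 and -3.25 in replicates 3-4. At Vwf the counts were 13, 15, 20 and 23 in WT, 18, 10, 22 and 26 in P300KO, 15, 15, 20 and 21 in TET2KO, and 15, 12, 18 and 21 in P300KO_TET2KO, and the averaged effect was 0 regions. Treml1 had 1 or 2 regions in every library and an averaged effect of 0.500 (exact permutation p = 0.120), the lowest p of the 9 loci. In each contrast 0 of the 9 loci had an exact permutation p under 0.05, where 0.399%, 0.329%, 0.323% and 0.555% of coding gene loci had one in the 4 contrasts between genotypes and 4.85% for averaged p300 loss. With 4 libraries against 4 the labels were permuted without regard to the replicate pair, although the counts differed between the pairs, and the smallest p is 0.0286. Permuted within the pairs it would be 0.0556, so that no contrast between genotypes could pass. For averaged p300 loss, permuted within Tet2 background and replicate pair, it is 0.00154.

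**Figure D5:**
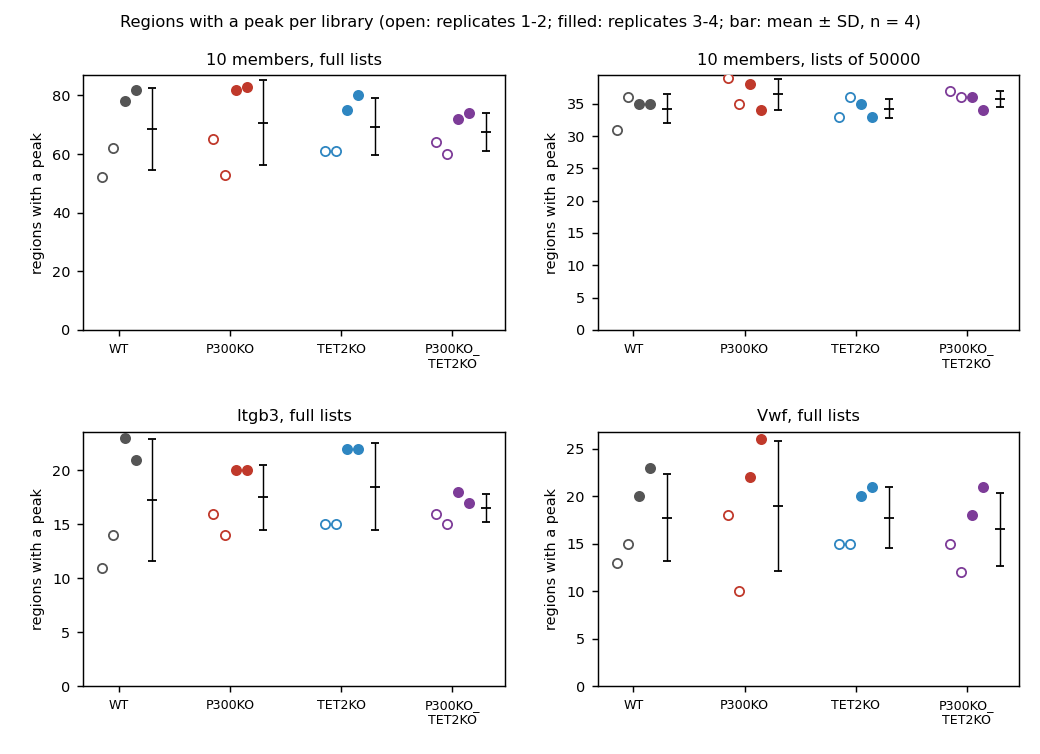
Number of regions with a peak in each library (y axis, from 0) by genotype (x axis) for the 10 genes together in full lists and in lists of 50000 peaks, and for Itgb3 and Vwf in full lists, with open points for replicates 1-2, filled points for replicates 3-4 and bars for the mean ± SD of 4 libraries. In full lists the filled points lie above the open ones, and in equal lists the 16 libraries lie between 31 and 39.

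The percentiles of each locus were also summed. By limma over 18565 coding gene loci, 0 of the 9 member loci were called in each contrast, where the share of all loci called was 0.0% in P300KO_TET2KO against TET2KO, 0.00539% in P300KO against WT, 0.0162% in TET2KO against WT, 0.0215% in P300KO_TET2KO against P300KO, 0.0862% for averaged p300 loss and 0.0% for the difference between the backgrounds. At an unadjusted p under 0.05 there was 1 of 9 members, Treml1, for averaged p300 loss, beside 13.5% of all loci, with a sum 15.1 ± 6.32 points higher (SE, limma adjusted p = 0.312). In the other 5 contrasts it was 0 of 9 members, beside 6.35% of all loci in P300KO_TET2KO against TET2KO, 11.2% in P300KO against WT, 9.08% in TET2KO against WT, 6.3% in P300KO_TET2KO against P300KO and 3.85% for the difference between the backgrounds. Itgb3 differed by -44.4 ± 42.0 points (limma adjusted p = 0.694) and Itga2b by 21.1 ± 13.2 points (limma adjusted p = 0.518).

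Other genes of the megakaryocyte program were read the same way. A start region was present in all 16 libraries for 8 of 11 regulators, among them Runx1 (88.6), Zfpm1 (96.6), Gfi1b (91.3) and Gata2 (78.3), whereas Gata1 had no start region in any library. The same held for 6 of 11 surface protein genes, 4 of 6 genes of platelet formation and 2 of 7 granule genes, where the starts of Ppbp and, among surface genes, Clec1b had a peak in 0 libraries. By limma on the locus sums 0 genes of these 4 lists were called in any of the 6 contrasts, against the shares of all loci just given. At an unadjusted p under 0.05, averaged p300 loss had 2 regulators, 1 surface gene, 0 granule genes and 1 gene of platelet formation, beside 13.5% of all loci, and each list had 0 or 1 in the other contrasts, against the shares of all loci given for them above.

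Markers of other cells at these loci varied by library too. The 6 endothelial marker loci, which matter for Vwf and Selp, held 27 to 36 regions in WT, 20 to 34 in P300KO, 20 to 36 in TET2KO and 23 to 35 in P300KO_TET2KO, and 2 of the 6 starts were present in all libraries. The 7 stem and progenitor loci held 68 to 102, 55 to 103, 58 to 103 and 73 to 105, the 6 erythroid loci 27 to 37 over all libraries, the 6 neutrophil and monocyte loci 33 to 55 and the 6 lymphoid loci 23 to 44. Of these lists 0 loci were called by limma in any contrast, and at an unadjusted p under 0.05 averaged p300 loss had 1 stem, 1 endothelial, 1 erythroid, 2 neutrophil and monocyte and 1 lymphoid gene, beside the same 13.5% of all loci, and each list had 0 to 2 in the other contrasts, against the shares of all loci given above. Their part in the values at the member loci was not tested.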

How the data were processed

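ATAC-seq was run on sorted HSPCs of 16 libraries, 4 for each of 4 genotypes. Per the submitters' processing notes the authors used cutadapt 1.9.1, Bowtie2 2.2.6 and MACS2 2.1.0 on mm10 and called peaks in each library alone. The deposited lists give each peak's fold enrichment ratio, its -log10 p and its -log10 q, and hold no counts, so depth is unknown and no count test was possible. Some peak numbers are absent from the lists as used here. Nothing was recomputed upstream of these lists.

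Peaks of all lists were merged (1 bp), each region was scored by its percentile within a list, and the 128335 regions with a peak in at least 4 libraries were fitted with limma 3.58.1 in R 4.3.3, with the replicate pair (1-2 or 3-4, which differ in list length) as a term, Benjamini-Hochberg adjusted over all regions at 0.05. Locus sums were fitted in the same way, and region counts were compared by two-sided exact permutation. Python 3.11.15, numpy 2.4.6, pandas 2.3.3, scipy 1.17.1, matplotlib 3.10.9 and pysam 0.24.0 were used, and the fits were tested on simulated data. Regions named are each gene's start, its strongest region and the 3 largest differences per contrast among those with the same sign in both replicate pairs, and regions called or present in 1 group alone, and 2 further Itgb3 regions, were added after their values were seen. Members, lists and tests were chosen with earlier results of these data known. Alternatives were lists of 50000 peaks, a q limit, summit windows, other locus windows, each replicate pair alone, a replicate block, and leaving out each library, which was added for lists of 50000 after the data were seen. Same-numbered libraries did not qualify as pairs.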

Additional observations from a re-analysis of the deposited data

Results flagged for a closer look

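In 14 of 124 groups of 4 libraries (11.3%), 1 library stood apart from the other 3 by Dixon's gap over range, above the 95% critical value of 0.829. Chance flags about 1 in 20 such groups, and in counts of a few regions a single step is enough.

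For the number of regions, TET2KO replicate 4 had 7 at Itga2b against 6 in the others, and 8 at Nfe2 against 7. P300KO replicate 2 had 6 at Gp9 against 4. P300KO_TET2KO replicate 2 had 4 at Gp1ba against 5, and P300KO_TET2KO replicate 1 had 8 at Selp against 9. WT replicate 3 had 3 at Pf4 against 2, and 2 at Treml1 against 1. P300KO replicate 4 had 1 at Treml1 against 2.

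For percentiles, the Selp start was at 0 in WT replicate 2 and at 40.5 to 48.3 in the other WT libraries. The Itga2b region at +23.05 kb was at 1.64 in WT replicate 1 against 34.8 to 35.2, and at 0 in P300KO replicate 2 against 34.5 to 40.8. The Itgb3 region at +31.13 kb was at 0 in TET2KO replicate 1 against 50.2 to 55.3. The Vwf region at +14.18 kb was at 17.1 in TET2KO replicate 3 and at 1.33 in P300KO_TET2KO replicate 1, with 0 in the other libraries of both genotypes.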

How the results depend on the processing

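No depth is known, and a weak region missing from a shorter list was not detectable there. Replicates 3-4 alone gave 4 called member regions for averaged p300 loss, 2 of them tested through libraries with p300 alone. Itgb3 +66.89 kb also reached the minimum through libraries with p300, so its calls are a description. Leaving out 1 library gave 0 to 1 in P300KO against WT, TET2KO against WT and averaged p300 loss. In each case the call was Itgb3 +66.89 kb without WT replicate 1. In lists of 50000 leaving out 1 library gave 0 to 3 for averaged p300 loss, the highest without WT replicate 1. It gave 0 to 1 there in P300KO against WT, and 0 in the other contrasts. Exact permutation of region counts gave 1 locus in lists of 50000 peaks for P300KO_TET2KO against TET2KO (Nfe2, 1.25, p = 0.0286, beside 0.873% of coding gene loci) and for averaged p300 loss (Vwf, 0.875, p = 0.0185, beside 3.43%), 1 with a q limit (Itga2b, 0.625, p = 0.0417, beside 7.41%), and 0 to 1 with 1 library left out (Treml1, 0.625, p = 0.0278 without WT replicate 3 or P300KO replicate 4, beside 5.0% and 5.15%, and Selp, 1.0, p = 0.0286 without P300KO_TET2KO replicate 1, beside 0.862%). Regions present in all libraries of one genotype and absent from the other numbered, beside 0: for P300KO_TET2KO against TET2KO, 1 gained in lists of 50000, in replicates 1-2, in replicates 3-4 and with at least 3 against at most 1, and 1, 5 and 1 lost in lists of 50000, replicates 3-4 and the loose rule. For P300KO against WT, 1, 4, 2 and 1 were gained in lists of 50000, replicates 1-2, replicates 3-4 and the loose rule, and 4 and 1 lost in the last pair. For TET2KO against WT, 2, 1 and 1 were gained and, in the last pair, 2 and 2 lost. For P300KO_TET2KO against P300KO, 2, 2 and 2 were gained and 1 and 6 lost in replicates 1-2 and 3-4. The member shares were 0.0% to 3.45% in replicates 1-2, 0.926% to 5.56% in replicates 3-4, 0.0% to 1.36% under the loose rule and 0.0% to 2.0% in lists of 50000, beside 0.474% to 2.8%, 1.61% to 2.43%, 0.522% to 1.19% and 0.0416% to 0.185% of all regions. With 1 library left out these counts ran from 0 to 1. Small region-count differences for averaged p300 loss reversed: in lists of 50000 Itgb3 0.375, Selp -0.5 and Nfe2 0.625, with a q limit Itgb3 0.125, with summit windows Nfe2 0.125, with 25 kb windows Pf4 0.125, in replicates 1-2 Itga2b -0.5, Itgb3 1.5, Pf4 0.25 and Selp -0.25, in replicates 3-4 Gp1ba -0.25, and from -0.125 to 0.375 at Gp1ba with 1 library left out. Itgb3 +10.90 kb reversed in lists of 50000 (-0.57), with -4.49, -0.13, -1.78 and -1.78 there without TET2KO replicate 1 and P300KO_TET2KO replicates 2, 3 and 4. The cause was not tested.

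The replicate block changed no call, with 0 member regions called in every contrast and a lowest adjusted p of 0.167 for averaged p300 loss. With the replicate pair removed, same-numbered libraries correlated at -0.100 to 0.0413, 0 of 12 over 0.1, so the numbers do not pair them.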
